A study of Mus musculus with 4 samples.

Results

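Described here are 7 of the 31053 genes measured by single-cell RNA sequencing in mouse lungs that carried small cell lung cancer: the CC chemokine genes Ccl2, Ccl6, Ccl7, Ccl9, Ccl12 and Ccl24, and Ccr2, the gene of the receptor that reads several of their products. They were taken by symbol from the feature table and followed over cell lineages, monocyte and macrophage subsets and 4 treatment groups. The members were chosen by their levels per lineage and group in these same libraries, as seen in earlier results, so every level and ratio below is a description and none carries a test. Tumour cells had been injected into the lung, and the whole perfused lung was digested and sorted with DAPI for live cells. Control mice received vehicle and isotype IgG. A second group received an antibody against PD-1, a brake on T cells (anti-PD-1, 200 µg per mouse). Another received YKL-5-124, a CDK7 inhibitor, at 10 mg/kg, and the last, the combination, both agents. Each group is 1 library, and the sources used here do not give how many animals it holds, so no value has a replicate error. Strain, age and sex of the mice are not given there either.

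CC chemokines are small secreted proteins that draw leukocytes along a concentration gradient. CCL2, CCL7 and CCL12 act in the mouse mainly through CCR2, the receptor that lets classical monocytes leave the bone marrow and enter inflamed tissue. CCL6 and CCL9 are made constitutively by myeloid cells and signal through CCR1, and CCL24, an eotaxin, acts through CCR3, the receptor of eosinophils. In the lung, macrophages and monocytes are known sources of these ligands.

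The genes form neighbourhoods. In GRCm38, Ccl2 (chr11:82035571-82037453, plus strand) lies 8258 bases from Ccl7 (chr11:82045712-82047525, plus strand), which is followed after 54319 bases by Ccl12 (chr11:82101845-82103400, plus strand). Ccl9 (chr11:83572919-83578636) and Ccl6 (chr11:83587882-83593087) lie 9245 bases apart on the minus strand of the same chromosome. Ccl24 is on chromosome 5 (chr5:135569937-135573049, minus strand) and Ccr2 on chromosome 9 (chr9:124101950-124113557, plus strand). RefSeq promoter windows (GRCm38.p6) were at hand for 4 of the 7 genes, Ccl6, Ccl9, Ccl12 and Ccr2, and not for Ccl2, Ccl7 and Ccl24. The 250 bases before the start of Ccl6 (chr11:83593088-83593337, minus strand) and Ccl9 (chr11:83578637-83578886, minus strand) are shown because these neighbours were the members found in most monocytes. Capitals mark ACTTCC, the ETS-type motif GGAAGT read on the other strand.
Ccl6: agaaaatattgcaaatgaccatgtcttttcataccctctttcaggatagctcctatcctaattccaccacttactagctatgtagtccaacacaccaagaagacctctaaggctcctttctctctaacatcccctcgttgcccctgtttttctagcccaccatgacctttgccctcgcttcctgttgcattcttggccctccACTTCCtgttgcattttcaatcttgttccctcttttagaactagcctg
Ccl9: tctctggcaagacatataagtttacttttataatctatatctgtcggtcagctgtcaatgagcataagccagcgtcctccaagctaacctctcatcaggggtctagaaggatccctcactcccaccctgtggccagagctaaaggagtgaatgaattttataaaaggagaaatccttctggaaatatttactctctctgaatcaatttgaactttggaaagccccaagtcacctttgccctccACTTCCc
Both capitals lie in a shared run of 13 bases, gccctccacttcc, which starts 55 bases before the start of Ccl6 and 14 bases before that of Ccl9. Searched on both strands, GGAAGT was found in 19.7% of 32851 promoters of this length. The PU.1 box GAGGAA was in 23.3%, TTGCNNAA (C/EBP) in 9.56%, GGGNNNNNCC (NF-kB) in 45.8% and TGANTCA (AP-1) in 6.75% of them. The window of Ccl9 also held GGGNNNNNCC, and TGANTCA 53 to 47 bases before its start. The Ccl12 window held GGAAGT at 2 places and GAGGAA at 1 place, and the Ccr2 window held none of the 5 motifs. Unlike the others, the Ccr2 window (chr9:124101933-124102182, plus strand) lies mostly inside the gene span given above, which starts at 124101950.

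The libraries held between 17329001 and 22950622 unique molecular identifiers (UMIs), and 3384, 2676, 4014 and 3911 barcodes passed as cells. Lists of 4 values run, here and below, from control over anti-PD-1 and YKL-5-124 to the combination. Of 12464 distinct cell barcodes, 643 were cells in more than 1 library. They gave 2164 cells, 1437 of them with under 10% of the UMIs of the deepest cell of the same barcode. Of the monocyte/macrophage-like cells only 16 had such a barcode, and without them all member ratios kept their size call. Cells were named by how many of 8 fixed markers of a lineage they held, and no member is a marker. In the 1493 monocyte/macrophage-like cells Ms4a6c was found in 88.5%, Lst1 in 86.0%, Cd68 in 81.5% and Csf1r in 79.3%, against at most 2.62% of B cell-like cells. This class made up 5.53% (4.78 to 6.35), 7.92% (6.93 to 9.01), 12.7% (11.7 to 13.8) and 14.9% (13.8 to 16.1) of cells. No cell was eosinophil-like by these markers, which allows a share of up to 0.0919 to 0.138% of the kept cells by library (exact binomial). Barcodes that did not pass as cells are not covered by this limit. Of the 8 eosinophil markers, Epx, the eosinophil peroxidase gene, had 0 UMIs in all cells. The others had UMIs: Prg2 293, Il5ra 59, Siglecf 47, Alox15 42, Ccr3 40, Ear6 4 and Prg3 1. Levels are in CPM, the UMIs of a gene scaled to a common total of UMIs of the class. Ratios were judged by size, at 1.5-fold on log2(CPM + 10), and log2 ratios below are on that scale. Intervals in parentheses are 95% and cover counting error only.

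Monocyte/macrophage-like cells were the lineage with the largest share of each of the 7 transcripts over the 4 libraries. Single libraries could differ: neutrophil-like cells held more Ccl6 UMIs with YKL-5-124, and NK cell-like cells slightly more Ccr2 UMIs in control. They held 90.0% of the Ccl2 UMIs of all cells, 93.01% of Ccl7, 93.2% of Ccl12 and 91.4% of Ccl24. For Ccl7 the share in the control library was lower, 14 of 31 UMIs. Over the 4 libraries their share was lower for Ccl9, 72.4%, Ccl6, 53.8%, and Ccr2, 49.6%, which other lineages also express. Neutrophil-like cells held 31.6% of Ccl6, T cell-like cells 20.6% of Ccr2 and NK cell-like cells 16.1% of Ccr2. By level the picture differs: Ccl6 and Ccl9 were highest in the 46 basophil/mast-like cells, at 8618 CPM (8111 to 9149) and 5169 CPM (4778 to 5584) over the 4 libraries. The lowest of the 4 library values of Ccl9 there, 4506 CPM, was above the highest in classical monocyte-like cells, 1572 CPM. The basophil/mast-like values rest on 10 to 14 cells a library.

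**Figure D1:**
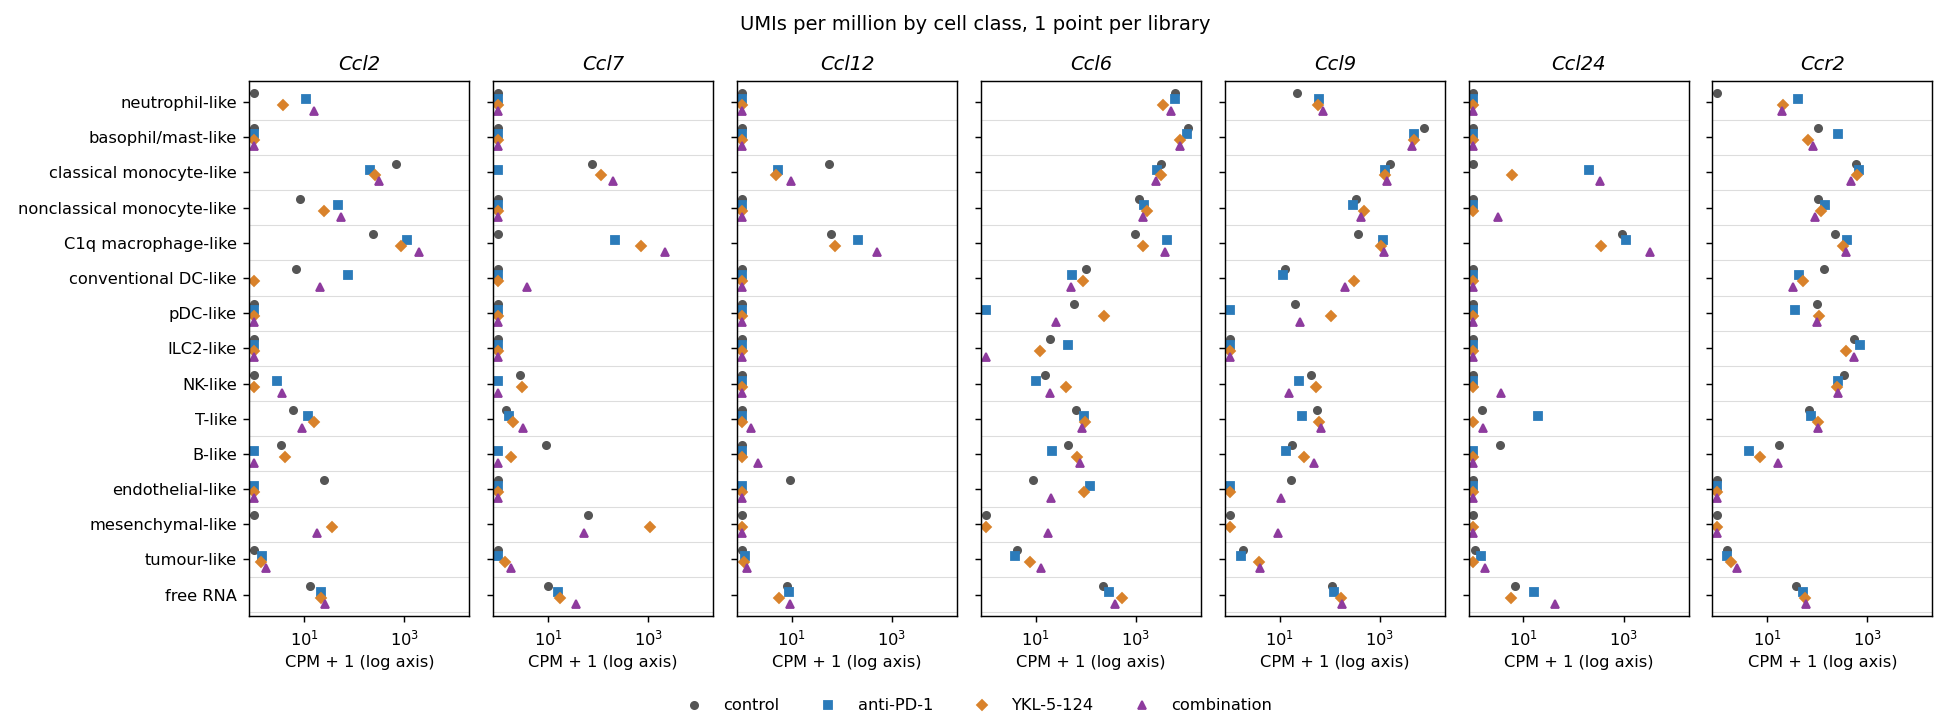
Level of each gene (CPM + 1, log axis) in each cell class, with 1 point per library of at least 5 such cells and free RNA (barcodes of 10 to 100 UMIs) in the last row. Over the 4 libraries Ccl2, Ccl7, Ccl12 and Ccl24 are highest in C1q macrophage-like cells, while Ccl6, Ccl9 and Ccr2 reach several lineages.

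Within the class, 3 subsets were large enough to follow: classical monocyte-like cells (45, 55, 228 and 214 cells), nonclassical monocyte-like cells (88, 87, 206 and 277) and C1q macrophage-like cells (25, 29, 35 and 37). Another set, of 14 alveolar macrophage-like cells, was too small to follow, and 153 cells took no subset. Summed over the 4 libraries, the CCR2 ligands and Ccl24 were highest in C1q macrophage-like cells. Over the 4 libraries Ccl2 was at 1224 CPM (1138 to 1314.5) in C1q macrophage-like cells, 308.7 CPM (287.0 to 331.7) in classical and 37.5 CPM (29.9 to 46.4) in nonclassical monocyte-like cells. Between libraries, however, Ccl2 in the first of these subsets ranged from 235 to 1929 CPM, which overlaps the range of 205 to 677 CPM in classical monocyte-like cells. In control the order was reversed for Ccl2, at 677 CPM in classical monocyte-like against 235 CPM in C1q macrophage-like cells. Both values rest on few cells: the highest held 30, 24 and 21 UMIs in the former subset and 14 in the latter. Ccl7 in control had 14 UMIs in 1 classical monocyte-like cell and 0 in C1q macrophage-like cells. Ccl7 and Ccl12 had 0 UMIs in all 658 nonclassical monocyte-like cells, where 3 UMIs would be 1.34 CPM, and Ccl24 had 2 UMIs. Ccr2 was highest in classical monocyte-like cells instead, with 559 CPM (530 to 590) in classical, 346 CPM (301 to 396) in C1q macrophage-like and 107 CPM (93.6 to 121) in nonclassical cells. Its ranges over libraries, 468 to 675, 224 to 397 and 90.8 to 142 CPM, did not overlap. Ccl9 likewise separated the monocytes, at 1272 to 1572 CPM in classical and 296 to 493 CPM in nonclassical cells.

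**Figure D2:**
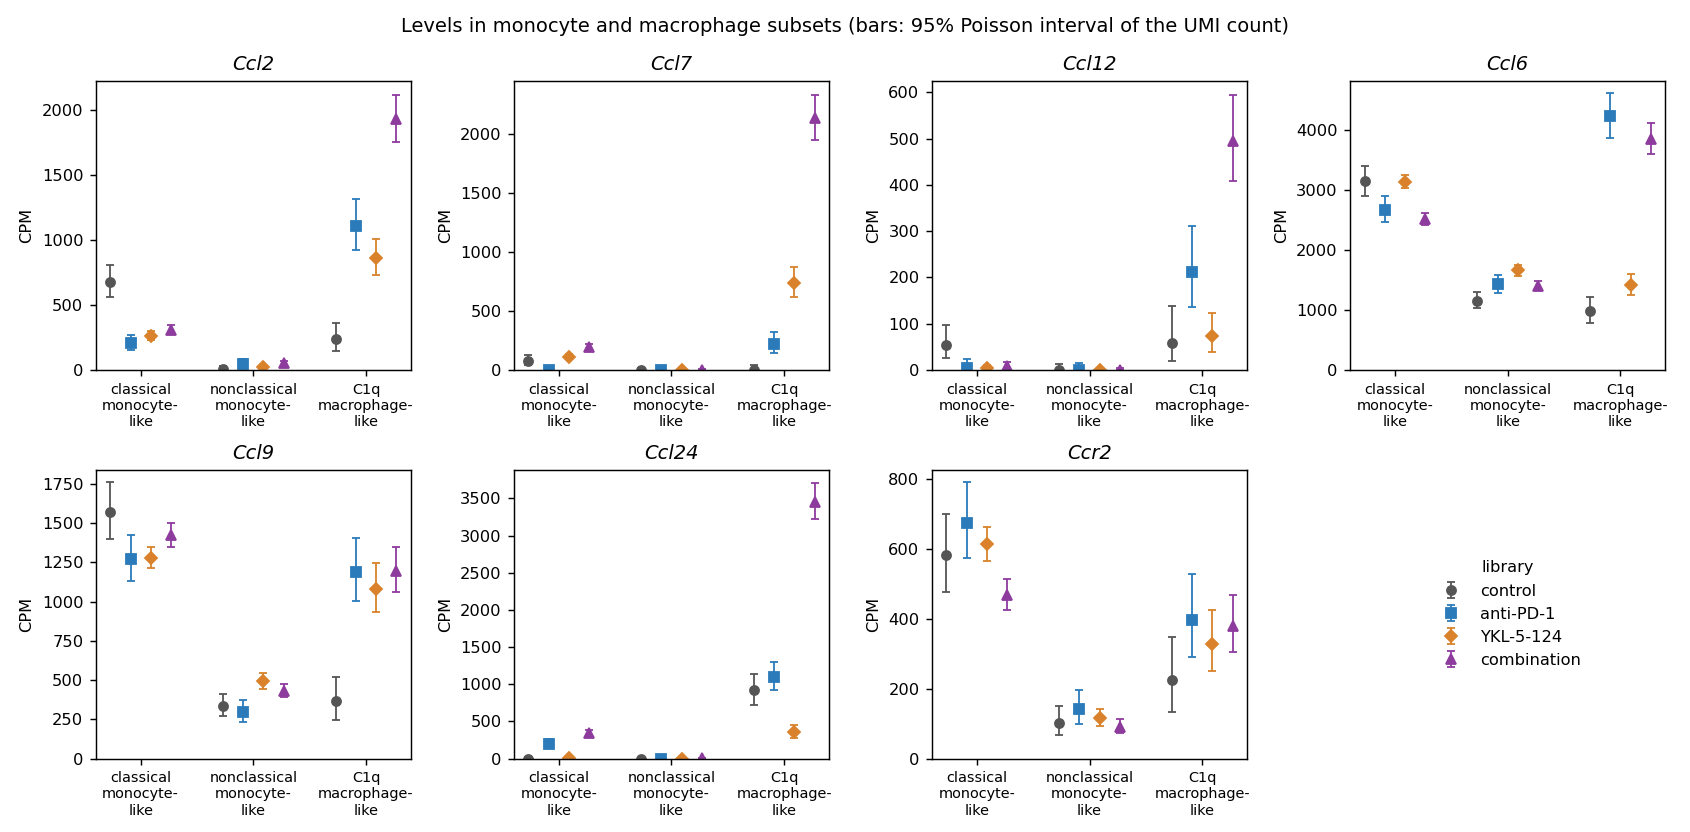
Level (CPM, linear axis from 0) of each gene in 3 subsets of monocyte/macrophage-like cells, with 1 point per library and bars for the 95% Poisson interval of the UMI count. In C1q macrophage-like cells the combination library is highest for Ccl2, Ccl7, Ccl12 and Ccl24, whereas Ccr2 is highest in classical monocyte-like cells of every library.

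Ccl7 differed widely between libraries and was highest in the combination. In monocyte/macrophage-like cells it was at 20.7 CPM (11.3 to 34.7) in control, 34.9 (23.0 to 50.8) with anti-PD-1, 115 (101 to 130) with the inhibitor and 295 (274 to 318) in the combination. The YKL-5-124 and combination values thus lay above both libraries without the inhibitor. The combination was 14.3-fold above control (8.45 to 26.2), 8.46-fold above anti-PD-1 (5.77 to 12.9) and 2.57-fold above YKL-5-124 (2.22 to 2.98). These levels rest on few cells. All 14 control UMIs were in 1 cell, 2 cells held 81.5% of the 27 UMIs of anti-PD-1 and 51.8% of the 251 of YKL-5-124, and 3 cells held at least 50% of the 719 of the combination. The share of cells with a Ccl7 UMI was 0.535%, 3.30%, 2.54% and 4.46%, so cells with the transcript were no more frequent with YKL-5-124 than with anti-PD-1. Thinned to 1000 UMIs a cell, the shares were 0.562%, 1.94%, 1.57% and 2.45%. B cell-like cells had a Ccl7 UMI in at most 0.153% of cells at their own depth, with median depths of 1461 to 1606 UMIs against 3272.5 to 4192 in the class. Without the top 1% of cells in each library the log2 ratio of YKL-5-124 over control was 0.68, against 2.02 with all cells, and that of the combination was 3.14 against 3.31. Control then had 0 Ccl7 UMIs, so these values depend on the 10 CPM added.

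By subset, Ccl7 in C1q macrophage-like cells had 0 UMIs in control and stood at 220 CPM (143 to 322), 735 CPM (615 to 871) and 2136 CPM (1952 to 2333) in the treated libraries. Set against 3 UMIs in control, these are 6.22-, 20.8- and 60.5-fold higher. They are no lower bounds, since control had only 25 such cells and 1 cell can hold many UMIs, up to 180 in the combination. In classical monocyte-like cells the 4 values were 74.6, 0, 113 and 194 CPM, the first from a single cell. Outside monocytes and macrophages Ccl7 was highest in mesenchymal-like cells, at 166 CPM over the 4 libraries, mostly from 8 cells of the YKL-5-124 library with 30 UMIs.

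Ccl2, the best known monocyte attractant, differed far less over the whole class. It was at 294 CPM (255 to 338), 268 CPM (232 to 307), 209 CPM (191 to 229) and 359 CPM (335 to 383). The combination was 1.71-fold above YKL-5-124 (1.53 to 1.92) and 1.22-fold above control (1.04 to 1.43). A Ccl2 UMI was found in 13.4%, 12.3%, 16.8% and 14.2% of cells. In anti-PD-1, 1 C1q macrophage-like cell held 99 of the 207 UMIs, and without the top cell of each library the log2 ratio of anti-PD-1 over control moved from -0.13 to -0.71. The excess over YKL-5-124 fell under 1.5-fold when each cell was weighted equally or thinned, at 0.46 on the log2 scale in both, against 0.75. The subsets went different ways: Ccl2 in classical monocyte-like cells was highest in control, 677 CPM (564 to 805) against 205, 264 and 311 CPM, and in C1q macrophage-like cells lowest in control, 235 CPM (144 to 363) against 1106, 857 and 1929 CPM. In the latter the combination was 8.20-fold above control (5.25 to 13.6), with 15 of 37 cells holding a UMI against 5 of 25.

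Ccl12, which in mice shares CCR2 with Ccl2, was rare, with 17, 27, 17 and 130 UMIs, or 25.1 CPM (14.6 to 40.3), 34.9 CPM (23.0 to 50.8), 7.79 CPM (4.54 to 12.5) and 53.4 CPM (44.6 to 63.4). The combination was highest and YKL-5-124 lowest. A single C1q macrophage-like cell of the combination held 79 of its 130 UMIs. Without the top 1% of cells, the log2 ratio of the combination over control was 0.19 instead of 0.85, and that of YKL-5-124 over control was -0.55 instead of -0.98, both under 1.5-fold.

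Ccl2 and Ccl7 were found in the same cells. Of the 27 monocyte/macrophage-like cells with at least 3 Ccl7 UMIs, 25 also had at least 3 Ccl2 UMIs, 92.6%, against 88 of the other 1466 cells, 6.003%. The cells with Ccl7 were deeper, with a median of 6355 UMIs against 3933.5. All 14 C1q macrophage-like cells with 3 or more Ccl7 UMIs had 3 or more of Ccl2, and 5 of them had as many of Ccl12. The cell with the most Ccl7 was a C1q macrophage-like cell of the combination, with 9267 UMIs, of which 180 were of Ccl7, 105 of Ccl2, 291 of Ccl6 and 86 of Ccl24. The reverse did not hold, since only 25 of 113 cells with 3 or more Ccl2 UMIs reached 3 of Ccl7. Ccl24 was mostly in other cells: 11 of the 38 cells with 3 or more Ccl24 UMIs had 3 or more of Ccl2, and 6 had as many of Ccl7. These counts are over cells of all 4 libraries and carry no test.

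**Figure D3:**
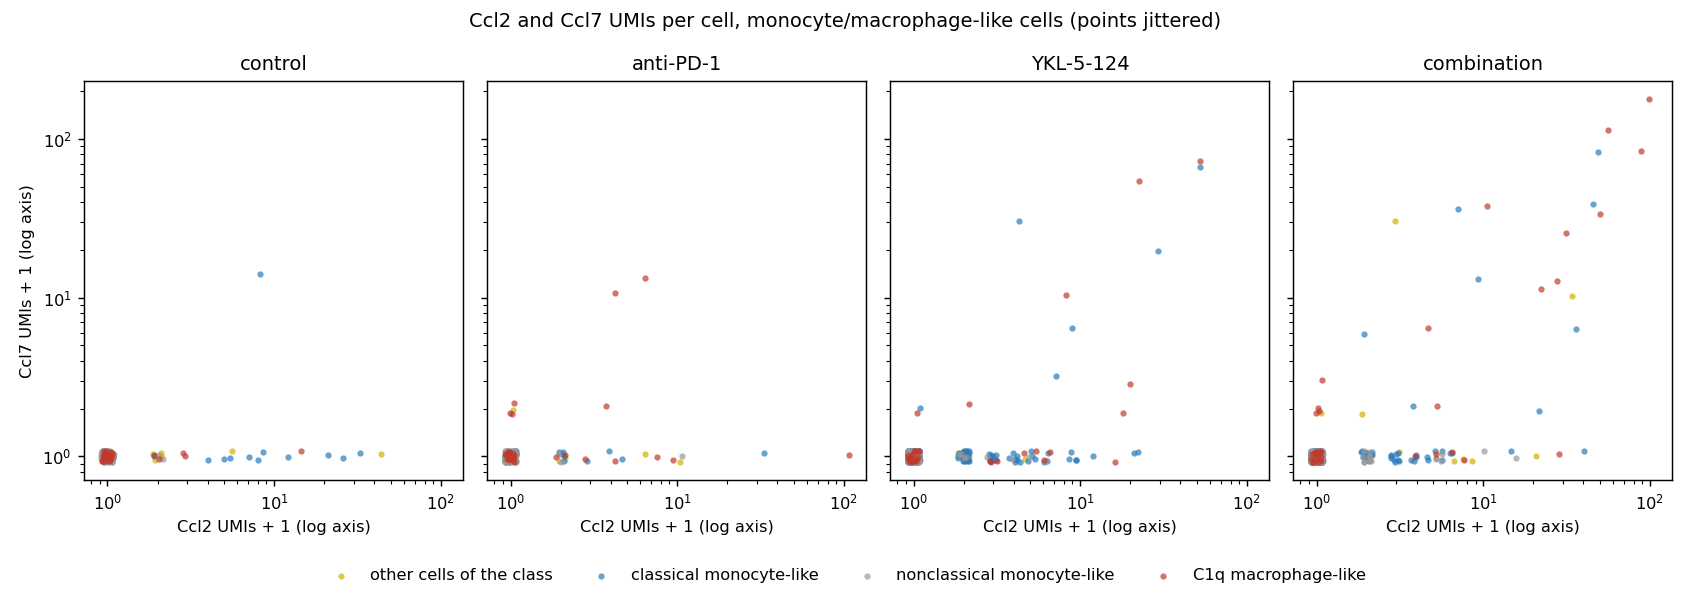
UMIs of Ccl2 (x) and Ccl7 (y) in each monocyte/macrophage-like cell, both as UMIs + 1 on log axes with points jittered, 1 panel per library, coloured by subset. Cells high in Ccl7 lie to the right, where Ccl2 is high too, and most of them are C1q macrophage-like or classical monocyte-like cells of the YKL-5-124 and combination libraries.

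Ccl6 and Ccl9, the constitutive myeloid chemokines, differed little between libraries, by at most 1.22-fold from control. Ccl6 was at 2053 CPM (1946 to 2164), 2152 CPM (2050 to 2258), 2298 CPM (2235 to 2362) and 2207 CPM (2148 to 2266) and was found in 81.8%, 84.4%, 92.6% and 85.9% of monocyte/macrophage-like cells. Its largest ratio to control was 1.12-fold (1.05 to 1.19), with YKL-5-124. Ccl9 was at 754 CPM (690 to 823), 755 CPM (695 to 819), 919 CPM (879 to 960) and 920 CPM (882 to 959), in 59.9%, 57.5%, 73.0% and 67.4% of cells. Both libraries with YKL-5-124 thus lay 1.22-fold above control (1.11 to 1.35 in each), under the 1.5-fold set for a call. They also held more classical monocyte-like cells, 44.6% and 36.7% of the class against 24.1% and 25.9%, the monocyte subset with more Ccl9. Weighted to the subset composition of control, the log2 ratio of YKL-5-124 was 0.06 for Ccl9 and -0.10 for Ccl6, and that of the combination was 0.17 for Ccl9. B cell-like cells, which should lack these genes, had a Ccl6 UMI in 1.86 to 4.17% and a Ccl9 UMI in 0.466 to 1.98% of cells. The 8 neutrophil markers together were at 209, 360, 910 and 360 CPM in monocyte/macrophage-like cells, and 4.28%, 5.19%, 20.7% and 4.97% of these cells had at least 3 UMIs of them. Neutrophil-like cells are rich in Ccl6, and the part of this in the YKL-5-124 value was not tested.

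Within C1q macrophage-like cells the libraries lay further apart. Ccl6 there was at 976 CPM (778 to 1210), 4231 CPM (3868 to 4618), 1420 CPM (1251 to 1605) and 3850 CPM (3602 to 4111), so both libraries with anti-PD-1 stood above the others. Few cells carry this. In the combination 1 cell had 291 of 894 UMIs, and 2 cells held at least 50%. Weighted equally per cell, the log2 ratio over control was 1.54 for anti-PD-1 and 1.29 for the combination, against 2.10 and 1.97 with summed UMIs. Ccl9 in these cells was at 365, 1191, 1080 and 1197 CPM, lower in control than in each treated library.

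Neutrophil-like cells gave the other large pool of Ccl6, at 5931 CPM (5454 to 6438), 6111 CPM (5637 to 6614), 3566 CPM (3471 to 3663) and 5051 CPM (4788 to 5324). YKL-5-124 stood apart from the others, 0.601-fold of control (0.551 to 0.657), in a class where 43.8% of 5599 genes were past 1.5-fold in that library, 47.1% with anti-PD-1 and 41.9% in the combination. Its neutrophil-like cells were also the most numerous, 763 against 92, 90 and 182. Of them, 330 had at least 3 UMIs of the granule protein genes Ngp, Ltf and Camp together, which maturing neutrophils express, against 3, 2 and 16 cells in the other libraries. Among cells with fewer than 3, Ccl6 was at 6073, 6212, 4133 and 5321 CPM, and the log2 ratio of YKL-5-124 over control was -0.55, just under a 1.5-fold difference, against -0.73 for all. It was likewise under 1.5-fold with classes from clusters (-0.47), with cells weighted equally (-0.54) and thinned to 1000 UMIs (-0.55). Of the 763 cells, 99 had a barcode that was a cell in another library. Without the cells of shared barcodes the ratio kept its call.

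**Figure D4:**
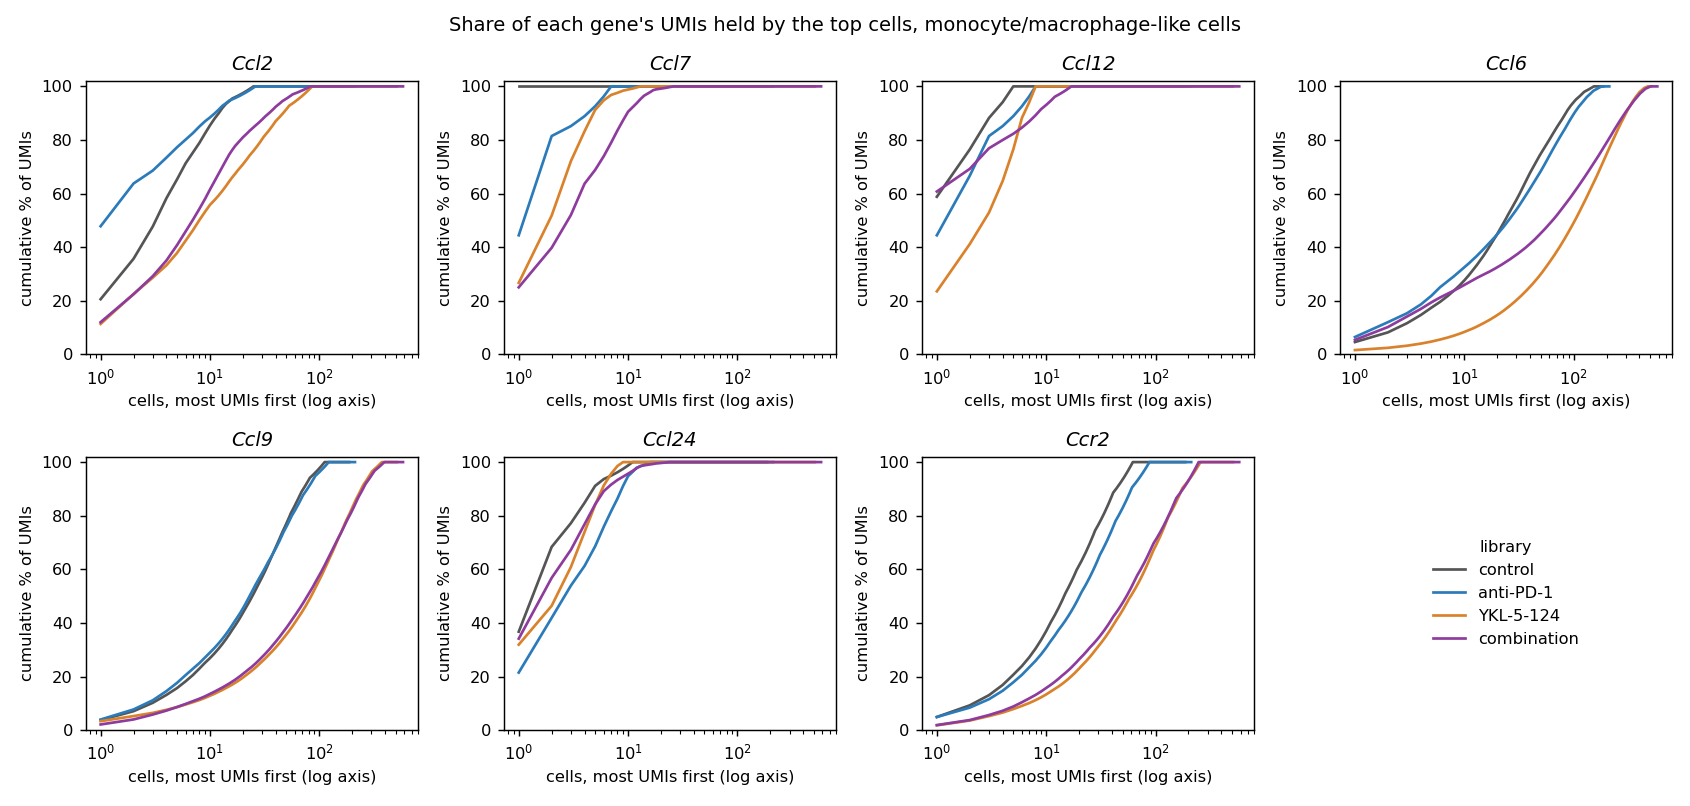
Cumulative percent of each gene's UMIs (y) held by the cells with the most of them (x, number of cells on a log axis) in monocyte/macrophage-like cells, 1 line per library. Ccl7, Ccl12 and Ccl24 reach 50% within 1 to 3 cells in every library, while Ccl6, Ccl9 and Ccr2 need 15 to 103 cells.

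Ccl24, the eotaxin, differed in opposite directions. It was at 117 CPM (92.5 to 146) in control, at 247 CPM (213 to 285) with the antibody, 31.6 CPM (24.6 to 40.0) with YKL-5-124 and 475 CPM (448 to 503) in the combination. Both libraries with anti-PD-1 were above control, 2.11-fold (1.62 to 2.78) and 4.06-fold (3.23 to 5.17), and YKL-5-124 alone was 0.270-fold of it (0.193 to 0.378). Few cells held it: 11 of 187, 16 of 212, 9 of 511 and 24 of 583 cells had a UMI, or 5.88%, 7.55%, 1.76% and 4.12%. The share of cells was thus lower in the combination than in anti-PD-1, although the level was higher. In the combination 2 C1q macrophage-like cells held 394 and 262 of the 1155 UMIs. Without the top 1% of cells in each library, the log2 ratio of the combination over control was 0.40 instead of 1.93, and over anti-PD-1 it was -1.02 instead of 0.91. The lower level with YKL-5-124 than in control remained, at -1.89 instead of -1.61. C1q macrophage-like cells made up 13.4%, 13.7%, 6.85% and 6.35% of the class. Weighted to the subset composition of control, the log2 ratio over control was 0.79 for anti-PD-1, -1.18 for YKL-5-124 and 2.13 for the combination. Thinned to 1000 UMIs, 3.37%, 6.80%, 1.38% and 2.98% of cells had a UMI. Free RNA, read in barcodes of 10 to 100 UMIs, held Ccl24 at 5.62, 15.02, 4.75 and 41.9 CPM, the same order of libraries as in the cells.

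In C1q macrophage-like cells Ccl24 was at 918 CPM (725 to 1145), 1098 CPM (917 to 1304), 356 CPM (274 to 455) and 3454 CPM (3219 to 3701), in 10 of 25, 12 of 29, 7 of 35 and 6 of 37 cells. The combination had the highest level and the lowest share of cells. Of the 8 markers of this subset, 6 were found in fewer of its cells in the combination than in any other library, from C1qb (89.2% against 92.0 to 94.3%) to Apoe (51.4% against 88.6 to 96.6%). The other 2, Trem2 (62.2% against 32.0 to 51.4%) and Mrc1 (35.1% against 16.0 to 34.5%), were found in more. The cells of this subset thus differed in markers between libraries. The part of this in the Ccl24 value, and in those of the other members in the same cells, was not tested. Classical monocyte-like cells had no Ccl24 UMI in control and 46, 5 and 325 UMIs in the treated libraries, the last being the combination. The level in the combination, 341 CPM (305 to 380), was 21.3-fold above that of 3 UMIs in control. That is no lower bound, since 1 cell can hold many UMIs. Those 325 UMIs came from 12 of 214 cells, of which 2 held 121 and 110. Without the top 1% of cells the log2 ratio was 3.01 instead of 5.13, both depending on the 10 CPM added. Outside the class, 1 T cell-like cell of anti-PD-1 held 29 UMIs, and 5 cells of the combination with no lineage held 90.

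Ccr2 was at 272 CPM (234 to 314), 370 CPM (328 to 415), 385 CPM (360 to 412) and 285 CPM (264 to 307) in monocyte/macrophage-like cells, and 33.2%, 41.5%, 50.5% and 42.5% of them had a UMI. Each single agent stood above control, 1.36-fold (1.13 to 1.64) with anti-PD-1 and 1.42-fold (1.21 to 1.67) with YKL-5-124, and the combination did not, at 1.05-fold (0.888 to 1.24). All are under 1.5-fold. Weighted to the control composition of subsets, the log2 ratio of YKL-5-124 was 0.16 against 0.49. With cells thinned to 1000 UMIs it was 0.73, past 1.5-fold. Within classical monocyte-like cells Ccr2 was at 581, 675, 613 and 468 CPM and was found in 68.9 to 80.0% of cells, so most cells of this subset had the receptor transcript in every library. Lymphoid cells carried it too: group 2 innate lymphoid cell-like cells were at 541, 703, 368 and 541 CPM, NK cell-like cells at 335, 264, 245 and 253 CPM and T cell-like cells at 65.8, 73.5, 103 and 99.8 CPM. B cell-like cells, at 3.38 to 15.9 CPM, were below all of these.

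**Figure D5:**
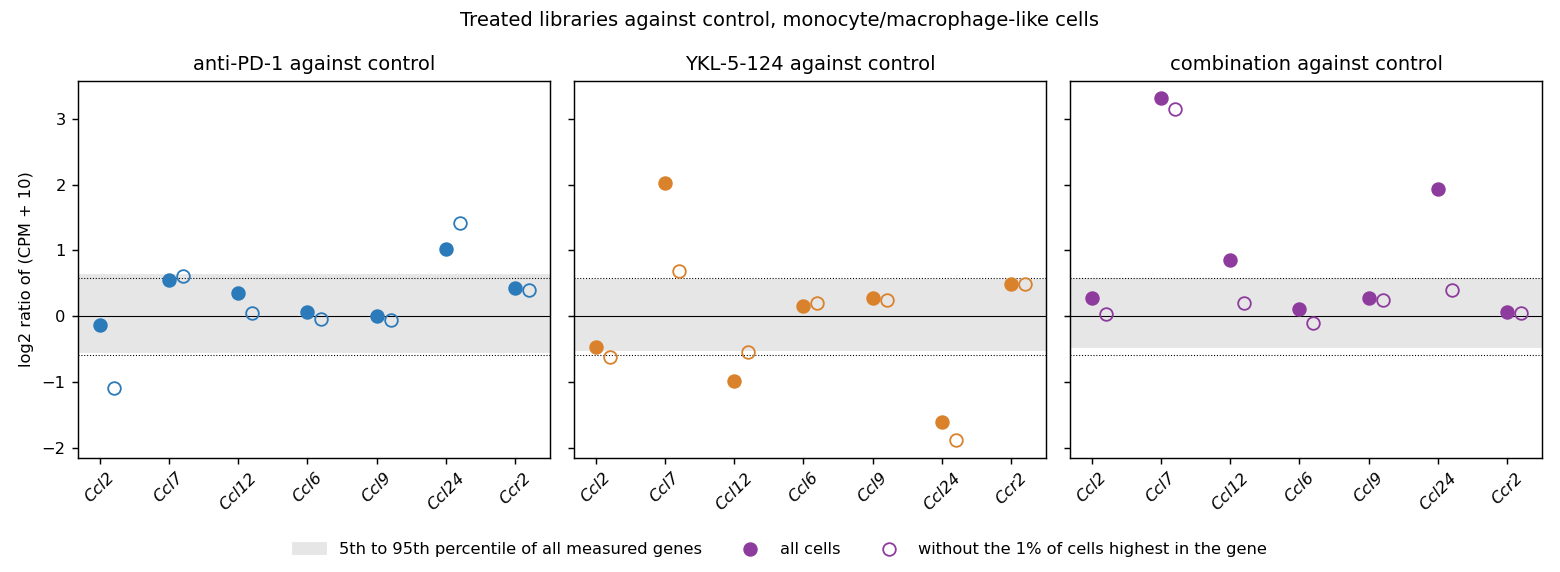
Log2 ratio of each treated library over control (with 10 CPM added to both) for each gene in monocyte/macrophage-like cells, with all cells (filled) and without the 1% of cells highest in the gene (open). The grey band spans the 5th to 95th percentile of all 6471 measured genes and dotted lines mark 1.5-fold. Ccl7 stays above the band in the combination in both, and Ccl24 in the combination drops into it without the top cells.

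Counted by the 1.5-fold rule of size against control, 1 of the 7 genes (Ccl24) was past it with anti-PD-1, beside 9.83% of the 6471 genes measured in the class (5.83% higher, 4.0% lower). With YKL-5-124 there were 3 (Ccl7 higher, Ccl24 and Ccl12 lower), beside 7.93% (4.2% higher, 3.72% lower). In the combination 3 were higher (Ccl7, Ccl24 and Ccl12), beside 7.4% (4.73% higher, 2.67% lower). With anti-PD-1, Ccl7 (0.55) and Ccl12 (0.35) were under 1.5-fold, but Ccl7 passed it under 5 alternatives (0.61 to 1.57) and Ccl12 under 2 (0.59 thinned, 0.81 with cells weighted equally). The combination against anti-PD-1 gave 2 (Ccl7 and Ccl24), beside 5.75% (2.8% higher, 2.95% lower), and against YKL-5-124 gave 4 (Ccl2, Ccl7, Ccl12 and Ccl24), beside 2.46% (1.61% higher, 0.85% lower). The 3 comparisons with control share that library. As the genes were picked with these libraries in view, nothing is read from the shares. In the small C1q macrophage-like subset, 6 of 7 were higher with anti-PD-1, 3 were higher and 1 lower with YKL-5-124, and all 7 were higher in the combination, but 53.4%, 46.3% and 46.8% of all 6450 genes passed there, and control had only 25 such cells. In classical monocyte-like cells 1 was higher and 3 lower with anti-PD-1, 2 lower with YKL-5-124, and 2 higher and 2 lower in the combination, beside 33.2%, 24.8% and 22.8% of 6249 genes. In nonclassical monocyte-like cells 4 of the 7 were measured, and 1 was higher in each treated library, beside 25.5%, 18.3% and 17.6% of 6384 genes.

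Of 14 other CC chemokine genes, those that attract monocytes or eosinophils and related ones that need not, 7 were measured in monocyte/macrophage-like cells. The numbers higher and lower than control were 3 and 1 (anti-PD-1), 2 and 0 (YKL-5-124) and 4 and 0 (combination). Of all measured genes 9.83%, 7.93% and 7.4% were past 1.5-fold. Median log2 ratios of the list were 0.51, 0.06 and 0.63 against 0.01, 0.03 and 0.03 for all genes. Ccl17, a ligand of CCR4, was at 488, 66.0, 592 and 1601 CPM. Ccl5, a ligand of CCR1, was at 45.9, 407, 98.0 and 110 CPM, and Ccl3, another CCR1 ligand, was at 244 CPM in control and 384 CPM in the combination. Of 8 receptor genes, 5 were measured, and 0, 4 and 1 were lower and none higher, beside 4.0%, 3.72% and 2.67% of all measured genes lower. The median log2 ratios of the receptor genes were -0.19, -0.65 and -0.38. The atypical receptor gene Ccrl2 was at 325, 237, 191 and 210 CPM. Of 13 genes of monocyte exit and adhesion, all were measured and none was past 1.5-fold in any treated library. The integrin gene Itgal had the largest ratio with anti-PD-1, 0.712-fold of control (0.557 to 0.910).

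Of 11 type 2 input and alternative activation genes, 7 were measured, and 3 were higher and 0 lower in each treated library. Of all measured genes 5.83%, 4.2% and 4.73% were higher. The median log2 ratios of the list were 0.31, 0.24 and 0.28, against 0.01, 0.03 and 0.03 for all genes. These comparisons share the control library, and how many cells carried the genes of the list was not tested. Retnla, a secreted product of alternatively activated macrophages, was at 14.8 CPM in control and at 513, 132 and 148 CPM in the treated libraries. Arg1, the arginase of such cells, was at 14.8, 242, 33.0 and 94.1 CPM. Of 11 inflammatory input and NF-kB feedback genes, the numbers higher and lower were 3 and 2, 2 and 1, and 2 and 1. Their median log2 ratios were -0.09, -0.38 and 0.06, and 9.83%, 7.93% and 7.4% of all measured genes were past 1.5-fold. Cxcl10, an interferon-induced chemokine, was at 17.8 CPM in control and 47.9, 47.6 and 69.9 CPM in the treated libraries. With YKL-5-124 the inflammatory cytokine gene Il1b was at 1290 CPM against 1836 CPM in control. Of 6 growth factor genes for monocytes and their receptors, 3 were measured and none was past 1.5-fold. Csf1r was at 513, 516, 463 and 532 CPM. Of the receptor genes, Ccr3, which reads CCL24, had 40 UMIs in all cells, and Ccr1, which reads CCL6 and CCL9, was highest in neutrophil-like cells at 821 CPM.

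The genes with patterns most like each member were taken over 39 lineage and library units of at least 20 cells, in 13 lineages, by Pearson's r of log2(CPM + 10), among genes of at least 10 CPM on average, a limit that Ccl12 did not reach. Units of 1 library share its depth and free RNA, so r is a description. Only 4 of the 39 units are of monocyte/macrophage-like cells, which held most UMIs of Ccl2, Ccl12 and Ccl24. For these genes r thus largely reads the step between this class and the others, and not whether the same cells hold both genes. Ccl2 was most like Fcgr1 (r = 0.918), C1qa (0.902) and F13a1 (0.892), with Ccl12 at 0.902 beside them, and Ccl7 most like Fn1 (0.858), Lrp1 (0.801) and Pid1 (0.773). Ccl12 was most like Ccl24 (0.951), Ccl2 (0.902) and Fcgr1 (0.875), and Ccl24 most like Ccl2 (0.889), Fcgr1 (0.875) and Gm21188 (0.848), with Ccl12 above these. Ccl6 paired with Pla2g7 (0.959), Fgr (0.959) and Pilra (0.952), and with its neighbour Ccl9 at 0.672. Ccl9 paired with Ms4a6c (0.919), Zeb2os (0.840) and Ms4a6d (0.837). Ccr2 stood apart from the ligands, with r from 0.191 to 0.368 to the other 6, and was most like Fam105a (0.894), Padi2 (0.821) and Rgs1 (0.819). Fcgr1 and Ms4a6c are markers of the gate and F13a1, Fn1 and C1qa of its subsets.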

How the data were processed

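Whole-lung cells of 4 libraries (10x Genomics 3′ version 2 chemistry, per the labels' protocols) were analysed, 1 for each group. The authors deposited UMI counts per gene and barcode as unfiltered matrices. Cell Ranger and bcl2fastq are named in the submitters' processing notes, with version 3.0.0 written in the file headers. Those notes name hg19, while the gene identifiers are mouse Ensembl identifiers, 30934 of which are in GENCODE release M21 (GRCm38) and 119 are not.

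Barcodes with at least 500 UMIs, 300 genes and at most 10.0% mitochondrial UMIs were kept as cells. Doublets were ranked by Scrublet scores (as run in Scanpy), and the highest 0.8% per 1000 cells (97, 60, 138 and 131 barcodes) were removed, since the automatic threshold marked only 5, 3, 5 and 2. A cell took the lineage of which it held the most of 8 markers, with at least 2 and no tie, and 967 cells took none. Subsets were set likewise. Summed counts were scaled to CPM with exact Poisson intervals. Ratios used log2(CPM + 10), raw ratios an exact conditional binomial interval, and genes under a mean of 10 CPM were not counted as measured. With 1 library per group no test was made and no p-value is given.

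Simulated Poisson counts were made for the combination against control (6471 genes). Of unchanged genes, 96.0% had an interval that held the true ratio and 2.76% passed 1.5-fold. Of genes changed 1.5-fold 25.4% were recovered, of those changed 2-fold 64.2% and of those changed 4-fold 97.0%. The intervals assume Poisson counts too, so this checks the calculation only. Most UMIs of Ccl7, Ccl12 and Ccl24 came from a few cells, which was not simulated. Their intervals, and those of Ccl2 in the subsets, do not cover that spread between cells. Of 470 words of 31 bases in the last 500 transcript bases, 18 of Ccl6 were shared with Slc17a4 and 4 of Ccl9 with Gm33246.

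Alternatives were classes from Leiden clusters (Scanpy 1.11.5, leidenalg 0.10.2) made without the 7 genes, another gate, pseudocount, scaling, depth or weighting of cells, and leaving out top cells or shared barcodes. The members and gene lists were chosen with earlier results of these data known. Named genes were the 7 members, the 3 genes most like each, gate markers, and up to 4 genes of each list with the largest log2 ratios and at least 20 UMIs. Python 3.11.15, NumPy 2.4.6, pandas 2.3.3, SciPy 1.17.1 and Matplotlib 3.10.9 were used.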

Additional observations from a re-analysis of the deposited data

Results flagged for a closer look

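Ccl24 in monocyte/macrophage-like cells went opposite ways with YKL-5-124 depending on whether anti-PD-1 was also given. Without the antibody, YKL-5-124 was below control by a log2 ratio of -1.61. With it, the combination was above anti-PD-1 by 0.91. The difference between these ratios was not tested, since each group is 1 library. The second ratio rests on 2 cells of the combination with 394 and 262 UMIs, and without the 1% of cells highest in Ccl24 it was -1.02, so both ratios then had the same sign.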

How the results depend on the processing

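Values are log2 ratios in monocyte/macrophage-like cells unless a subset is named, and "moved" means past the counting interval of the ratio with all cells. Of the 482 recomputed ratios, shares and gene counts of this class, 411 stayed within that interval, or within 1.5 times for a count. Results moved under 8 alternatives fixed at the start and 1 chosen after seeing the data (without the top cell of each gene in each library).

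Against control, the Ccl24 ratio of the combination (1.93) was 0.62 with cells weighted equally, 1.11 thinned to 1000 UMIs, 0.40 without the 1% of cells with the most UMIs of the gene and 2.29 with classes from clusters. Ccl7 of the combination (3.31) was 4.35 thinned and 4.54 without the top cell, and Ccl7 of YKL-5-124 (2.02) was 0.68 without the top 1% and 3.24 without the top cell, since control then had none. Ccl12 of the combination (0.85) was 1.87 with equal weights. Ccl2 of anti-PD-1 (-0.13) was -0.78 thinned, -1.08 without the top 1%, -0.71 without the top cell and 0.29 with clusters. Ccl2 of YKL-5-124 (-0.47) was -0.054 with clusters, and that of the combination (0.28) was -0.24 thinned, 0.038 without the top 1% and 0.58 with clusters. Ccl6 was 0.29 (anti-PD-1), 0.40 (YKL-5-124) and 0.31 (combination) with clusters, against 0.07, 0.16 and 0.10. Ccl6 of the combination was -0.038 with equal weights, -0.15 thinned and -0.11 without the top 1%, Ccl6 of YKL-5-124 was 0.033 thinned and -0.10 with the subset composition of control, and Ccl6 of anti-PD-1 was -0.036 without the top 1%. Ccl9 was 0.57 (YKL-5-124) and 0.56 (combination) with clusters, against 0.28, and 0.46 (combination) thinned and 0.060 (YKL-5-124) with the composition of control. Ccr2 of YKL-5-124 (0.49) was 0.73 thinned and 0.16 with that composition.

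For the combination over anti-PD-1, Ccl24 (0.91) reversed to -0.053 with equal weights and -1.02 without the top 1%, and was 0.29 thinned, 0.66 without the top cell and 1.34 with the composition of control. Ccl2 (0.41) was 1.12 without the top 1% and without the top cell and 0.76 with that composition. Ccl6 (0.04) was 0.13 with 1 marker more and with that composition, -0.057 with equal weights, -0.12 thinned and -0.069 without the top 1%. Ccl9 (0.28) was 0.45 with clusters, and Ccr2 (-0.37) was -0.082 thinned.

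For the combination over YKL-5-124, Ccl24 (3.54) was 2.34 with equal weights, 2.52 thinned and 2.29 without the top 1%. Ccl2 (0.75) was 0.46 with equal weights and thinned and 0.99 with the composition of control. Ccl7 (1.29) was 2.46 without the top 1%, and Ccl12 (1.83) was 0.74 without it and 0.96 without the top cell. Ccl6 (-0.06) was -0.24 with equal weights, -0.18 thinned, -0.30 without the top 1%, -0.11 without the top cell and 0.23 with the composition of control. With that composition Ccl9 (0.00) was 0.11 and Ccr2 (-0.42) was -0.21.

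In classical monocyte-like cells the low Ccl7 of anti-PD-1 rested on 1 control cell: the ratio, -3.08, was 0.00 thinned, without the top 1% and without the top cell. Ccl12 there rested on 1 control cell too, and its negative ratios were 0.00 (anti-PD-1), 0.00 (YKL-5-124) and 0.15 (combination) without the top 1%, and 0.00, 0.25 and 0.61 without the top cell. Where no construction of the alternative shows it, the cause was not tested.

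The genes past 1.5-fold, 636 (anti-PD-1), 513 (YKL-5-124) and 479 (combination) at a minimum of 10 CPM, numbered 127, 144 and 125 at 50 CPM. Without a minimum they were 1073 and 775 for the single agents, and with clusters 418 for anti-PD-1. The log2 ratio of the class's share of cells was 0.91 and 1.17 for YKL-5-124 and the combination with clusters, against 1.20 and 1.43. No paired analysis was possible because each group is 1 library. Another pseudocount, size factors, doublets kept, a minimum of 1000 UMIs and cells without shared barcodes moved none of these results past their interval, but a pseudocount of 1 CPM took Ccl7 of anti-PD-1 over control (0.55) to 0.73 and Ccl12 of the combination over anti-PD-1 (0.50) to 0.60, both past 1.5-fold. Other calls changed within the interval. Ccl7 of anti-PD-1 was also past 1.5-fold with equal weights (0.94), thinned (1.56), without the top 1% (0.61) and without the top cell (1.57), and Ccl12 of anti-PD-1 (0.35) with equal weights (0.81) and thinned (0.59). Ccl12 of the combination over anti-PD-1 was past it with equal weights (1.06) and with the composition of control (1.04), Ccl2 of YKL-5-124 thinned (-0.71) and without the top 1% (-0.62), and Ccr2 of YKL-5-124 with equal weights (0.66). Ccl12 over control was under it for YKL-5-124 (-0.98) without the top 1% (-0.55) and without the top cell (-0.36), and for the combination without the top 1% (0.19). With 1 library a group, the spread between animals is unknown, and most UMIs of Ccl7, Ccl12 and Ccl24 come from a few cells each.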

Other observations

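Ccl9 in conventional dendritic cell-like cells was at 11.8 (control), 10.5 (anti-PD-1), 301 (YKL-5-124) and 199 (combination) CPM. These values rest on 17 to 54 cells a library and belong to no comparison above. Free RNA held Ccl7 at 9.17, 14.7, 15.9 and 35.0 CPM and Ccl6 at 224, 291, 519 and 378 CPM.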
